A study of Mus musculus with 6 samples.

Results

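The genes described here are 10 immediate-early genes of 3 families, read out in testes that lack Arid4b in Sertoli cells: Egr1, Egr2, Egr3 and Egr4, Nr4a1, Nr4a2 and Nr4a3, and Ier2, Ier3 and Ier5. They were taken by gene symbol, and all 10 were among the 22320 genes of the authors' table. Messenger RNA was sequenced from whole testes at postnatal day 1.5 in 2 groups, each of 3 pools of 4 testes, from mice of a hybrid C57BL6/J and 129/SvEv background. Arid4bSCKO mice had the genotype Arid4b-/Flox; Amh-cre and control mice the genotype Arid4b+/Flox; Amh-cre. Both groups therefore carried a floxed Arid4b allele and Cre under the promoter of Amh, a gene of Sertoli cells. The other allele was null in all cells of Arid4bSCKO mice and wild type in controls, so the groups also differed outside Sertoli cells. The comparison asks which of these genes differ in level when ARID4B, a chromatin protein that works with the Sin3 corepressor, is lost.

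Immediate-early genes are transcribed within minutes of a growth factor, hormone or stress signal, from promoters whose activating factors (SRF with its ELK partners, and CREB) are already present. EGR proteins are zinc finger transcription factors that bind GC-rich sites. NR4A proteins are orphan nuclear receptors that bind DNA without a known natural hormone, and NR4A1 is known in Leydig cells as an activator of steroid synthesis genes. The IER proteins belong to neither class of DNA-binding protein, and are known from growth, survival and heat shock pathways. The IER genes are grouped here by name, and for them family means no more than that.

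The promoters of the families were compared first, apart from any level. RefSeq promoters of 300 bases (250 before the transcript start and 50 after it, build GRCm38.p6) were matched for 7 of the 10 genes. Egr1, Egr3 and Ier2 had no entry. The 4 below are printed because Ier3 rose most, Ier5 is the IER gene without a call, and Nr4a1 and Egr2 stand for the other families. They lie at chr17:35821463-35821762 (plus strand), chr1:155099587-155099886 (minus), chr15:101266596-101266895 (plus) and chr10:67537619-67537918 (plus). Capitals mark matches to 8 motifs searched on both strands: the CArG box that SRF binds, TGACGTCA and its core TGACG (the cyclic AMP element that CREB binds), GCGTGGGCG and GCGGGGGCG (EGR sites), AAAGGTCA (the NR4A site), TGANTCA (the AP-1 site) and TATAAA. The core TGACG lies within TGACGTCA, and the other motifs can overlap only in part.
Ier3: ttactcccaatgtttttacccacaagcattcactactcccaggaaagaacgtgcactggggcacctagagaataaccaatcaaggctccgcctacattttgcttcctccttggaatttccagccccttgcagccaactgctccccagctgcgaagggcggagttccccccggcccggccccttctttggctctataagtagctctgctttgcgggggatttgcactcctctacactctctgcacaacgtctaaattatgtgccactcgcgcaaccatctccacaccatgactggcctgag
Ier5: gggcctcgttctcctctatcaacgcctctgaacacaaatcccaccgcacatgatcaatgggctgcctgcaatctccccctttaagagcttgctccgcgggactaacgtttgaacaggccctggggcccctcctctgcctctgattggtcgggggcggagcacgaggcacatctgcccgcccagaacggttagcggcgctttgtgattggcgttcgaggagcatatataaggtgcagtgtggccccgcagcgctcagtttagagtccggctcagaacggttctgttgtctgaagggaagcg
Nr4a1: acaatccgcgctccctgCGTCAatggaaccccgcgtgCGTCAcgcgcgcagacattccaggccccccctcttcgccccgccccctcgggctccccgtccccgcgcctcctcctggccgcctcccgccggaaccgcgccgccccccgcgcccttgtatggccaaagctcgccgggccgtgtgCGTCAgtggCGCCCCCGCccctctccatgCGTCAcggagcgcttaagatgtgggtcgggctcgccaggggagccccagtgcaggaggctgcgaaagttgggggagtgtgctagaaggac
Egr2: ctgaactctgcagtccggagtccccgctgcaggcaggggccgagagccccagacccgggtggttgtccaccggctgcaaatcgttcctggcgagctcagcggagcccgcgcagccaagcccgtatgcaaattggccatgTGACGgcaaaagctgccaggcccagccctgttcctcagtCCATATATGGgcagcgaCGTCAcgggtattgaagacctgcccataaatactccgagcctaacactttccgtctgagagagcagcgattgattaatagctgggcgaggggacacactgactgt
The TGACG core was present in all 5 EGR and NR4A promoters searched and in neither of the 2 IER promoters. It occurred in 20.8% of all 32851 promoters of this length, and in 31.6% of the 9690 promoters with a GC content of at least 60.0%, the lowest among those 5. Nr4a1, Nr4a2 and Nr4a3 each had 4 matches, and Egr2 and Egr4 each had 2. The whole element TGACGTCA was found in none of the 7 (1.79% of all promoters). The Egr2 promoter held a CArG box at positions -72 to -63 from the start (1.63% of all promoters). The Nr4a1 promoter held GCGGGGGCG on the minus strand at positions -60 to -52 (2.91% of all promoters). No match to any of the 8 motifs was found in the Ier3 and Ier5 windows. A match describes these letters and does not show that a factor binds there.

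**Figure D1:**
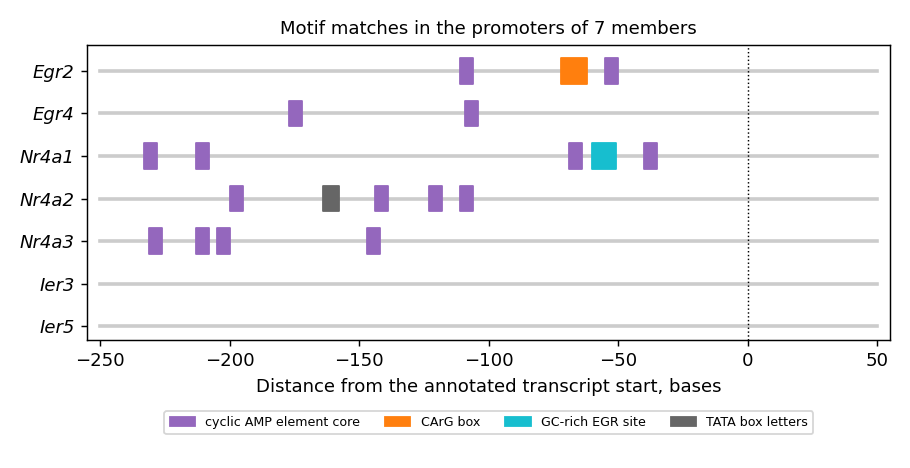
Positions of motif matches (coloured blocks) in the promoters of 7 genes, with distance from the transcript start in bases on the x axis and the start at the dotted line. The cyclic AMP element core appears 2 to 4 times in each EGR and NR4A promoter, and the Ier3 and Ier5 lines are empty.

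The targeted gene was lower in the mutants. In the authors' deposited table the mean log2 level of Arid4b was 8.68 in Arid4bSCKO and 10.19 in control, or 35.1% of control (log2 difference -1.51, 95% interval -1.82 to -1.21, FDR 0.0535). Levels are the authors' means over 3 libraries of log2(normalized count + 1), and values of single libraries were not analysed here. Standard errors and intervals were worked back from the deposited p-values. Depth, read from genes seen in a single library, averaged about 17.5 M (mega) reads in the Arid4bSCKO libraries and 18.6 M in the control ones. The labelled tissue showed its markers in both groups. The control log2 means were 14.25 for Amh and 10.67 for Sox9 (Sertoli cells), 10.91 for Ddx4 (germ cells) and 12.62 for Cyp17a1 (Leydig cells). Testes were read whole, so fewer cells of a type and less RNA per cell cannot be told apart.

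Ier3 and Ier2 rose in Arid4bSCKO testes, and no EGR or NR4A gene was called in either direction. A gene was called when its adjusted p was below 0.05 in a moderated limma test, in which the variance of each gene is drawn toward that of others at its level, over the 19095 genes with a mean log2 level of at least 1. By this test 2 of the 10 genes were called higher and 0 lower, where 7.37% of all genes tested were called higher and 6.46% lower (13.8% in all). The median difference was 0.32 over the 10 genes and -0.04 over all 19095. In the authors' deposited table, whose FDR was below 0.05 for 0.26% of all genes, 0 of the 10 passed it, and 2 of them had an unadjusted p below 0.05, as did 20.9% of all genes. These were again Ier2 and Ier3, so 0 of the 7 EGR and NR4A genes had one. In an equal-variance comparison, 3 libraries against 3 with a p below 0.0474 cannot overlap, whatever the single values. That bound was passed by Ier2 and Ier3, and by 23.5% of all genes at this level.

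Ier3, which encodes a regulator of apoptosis and of ERK signalling also known as IEX-1, had mean log2 levels of 6.79 in control and 9.88 in Arid4bSCKO, or about 89.1 and 699 reads per library. Every Arid4bSCKO pool lay at least 1.77 log2 units above every control pool. The rise was 3.09 log2 units (SE 0.469, n = 3 pools a group), an 8.52-fold change with a 95% interval of 3.46 to 21.0. The moderated limma test gave an adjusted p of 0.0035, and the authors' deposited table an FDR of 0.1. The medians of the groups differed by 3.53, more than the means did, so the pools were not evenly placed about their means. Ier3 is on chromosome 17 at 35821713 to 35822911 (plus strand, mm10), in 2 exons. The next gene with a level of at least 1, Flot1, begins 0.4 kb downstream on the same strand and encodes a membrane raft scaffold. Flot1 was also called higher, by 0.69 (95% interval 0.48 to 0.89, adjusted p = 0.00124 in the moderated limma test). On the other side, Ddr1, a collagen receptor gene 117.1 kb away, was called higher by 0.42 (0.24 to 0.61). These neighbours were taken by position after the values of Ier3 were seen.

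Ier2, a nuclear regulator of transcription induced by growth factors, was already abundant in control and rose modestly. Its mean log2 levels were 9.76 in control and 10.27 in Arid4bSCKO. The pools of the groups were separated by at least 0.34 log2 units. The rise was 0.51 (SE 0.0597, 95% interval 0.34 to 0.67), or 1.42-fold, with an adjusted p of 0.00411 in the moderated limma test. The authors' deposited table gave it an FDR of 0.084. Its call was lost when the variances were drawn toward 1 common value, without robust fitting (adjusted p = 0.0602), a setting in which 1.24% of all genes were called and in which Ier3 was still called (adjusted p = 0.0452). Ier2 has 1 exon, on chromosome 8 at 84661331 to 84662852 (minus strand).

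Ier5, which encodes a regulator of the heat shock factor HSF1, stood at 9.72 in control and 9.80 in Arid4bSCKO. The difference of 0.08 had a 95% interval of -0.17 to 0.33, so a rise above 1.25-fold or a fall below 0.89-fold lay outside it. Its SE was 0.0889, against 0.0597 for Ier2, and its adjusted p in the moderated limma test was 0.65. It has 1 exon, on chromosome 1 at 155096367 to 155099636 (minus strand).

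**Figure D2:**
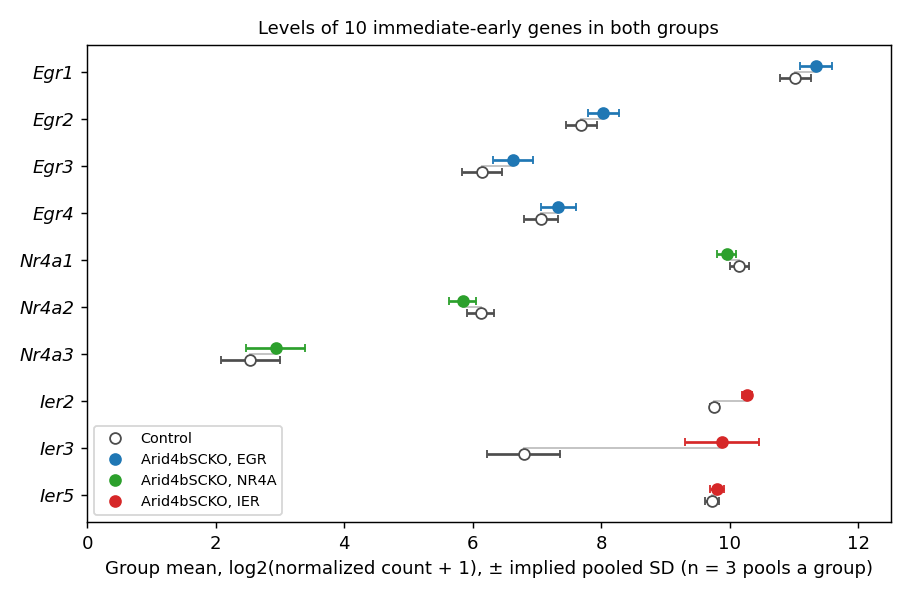
Mean log2(normalized count + 1) of each gene (x axis) in control (open circles) and Arid4bSCKO (filled circles, coloured by family), with bars for the SD between pools pooled over both groups (3 pools each). Ier3 moves from 6.79 to 9.88 and Ier2 from 9.76 to 10.27, while no EGR or NR4A gene differs by more than 0.48.

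All 4 EGR genes had positive differences, from 0.27 to 0.48 log2 units, and none was distinguishable from 0. Egr1, the most studied of the family and a rapid target of ERK and SRF, had mean log2 levels of 11.02 in control and 11.34 in Arid4bSCKO. Its difference of 0.31 had a 95% interval of -0.25 to 0.87. Egr2, known from hindbrain patterning and myelination, stood at 7.69 and 8.03, a difference of 0.34 (-0.20 to 0.88). Egr3, known from muscle spindle development, stood at 6.15 and 6.63, a difference of 0.48 (-0.22 to 1.19). Egr4, a gene needed for male fertility in mice, stood at 7.06 and 7.33, a difference of 0.27 (-0.34 to 0.89). The upper ends of the 4 intervals correspond to folds of 1.83, 1.84, 2.28 and 1.85, so rises of this size could have been missed. Adjusted p-values in the moderated limma test ran from 0.183 for Egr1 to 0.398 for Egr4. Whether single pools of the 2 groups overlapped cannot be read from the group values of these genes.

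No NR4A gene was called, and the intervals of all 3 spanned 0. Nr4a1, also named Nur77, stood at 10.15 in control and 9.95 in Arid4bSCKO, a difference of -0.20 with a 95% interval of -0.53 to 0.13. A rise of Nr4a1 above 1.10-fold lay outside that interval. Nr4a2, also named Nurr1 and required for dopamine neurons, stood at 6.12 and 5.84, a difference of -0.28 (-0.74 to 0.18). Nr4a3, also named NOR-1, was the least abundant of the 10 genes at 2.54 and 2.93. That is about 3.93 and 4.90 reads per library, and its interval of -0.66 to 1.43 holds folds from 0.632 to 2.69. Adjusted p-values in the moderated limma test were 0.248 for Nr4a1, 0.451 for Nr4a2 and 0.669 for Nr4a3.

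**Figure D3:**
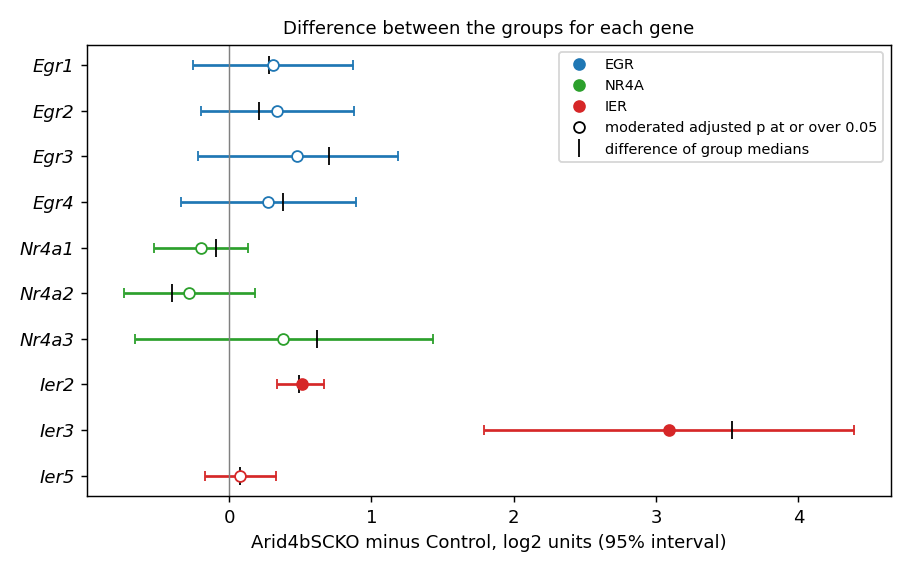
Difference between Arid4bSCKO and control for each gene in log2 units (x axis), as means with 95% intervals, filled where the moderated adjusted p is below 0.05, with ticks for the difference of the group medians. The intervals of Ier2 and Ier3 lie above 0 and the other 8 span it.

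The rise of Ier3 was larger than that of each of the other 9 genes. For a pair of genes measured in the same pools, the standard error of the difference between their changes is at most the sum of their standard errors. With this widest interval, added after the values were seen, the excess of Ier3 was 2.58 log2 units over Ier2 (1.12 to 4.05), 2.78 over Egr1 (0.92 to 4.64), 3.29 over Nr4a1 (1.66 to 4.92) and 3.01 over Ier5 (1.46 to 4.56). All 9 of these intervals excluded 0, the nearest being the one for Nr4a3 (0.36 to 5.05). For Ier2 the widest interval excluded 0 above Nr4a1 (0.21 to 1.20), Nr4a2 (0.16 to 1.41) and Ier5 (0.02 to 0.84). It spanned 0 against all 4 EGR genes, for example 0.19 over Egr1 (-0.53 to 0.92), and against Nr4a3 at 0.12 (-1.09 to 1.33). The change of Ier2 was thus not shown to differ from that of any EGR gene or of Nr4a3.

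Per kilobase of the longest annotated transcript, control levels ran from 0.844 to 571 normalized counts. Ier2 was at 571 normalized counts per kb, Egr1 at 464, Nr4a1 at 444 and Ier5 at 258. Ier3 followed at 96.8, Egr2 at 69.4 and Egr4 at 61.6, and then Nr4a2 at 19.2, Egr3 at 17.7 and Nr4a3 at 0.844. Neighbours in this order that differed by less than their combined SD between pools were Egr1 and Nr4a1, Ier3 and Egr2, Egr2 and Egr4, and Nr4a2 and Egr3. With the transcript matched by RefSeq accession, Egr1 was at 685 and came before Ier2. In Arid4bSCKO, by the longest transcript, Ier3 moved from the fifth place to the first at 832 normalized counts per kb, beside Ier2 at 811. For Egr1 the transcript matched by RefSeq accession has 3036 bases, against 4484 for the longest. With that length Egr1, at 2580 normalized counts over 3036 bases in Arid4bSCKO, comes slightly before Ier3, at 940 over 1131 bases. The first place of Ier3 therefore holds for the longest transcript only. The EGR genes have 2 exons in the longest transcript, the NR4A genes 8, and the IER genes 1 or 2.

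The spread between pools differed widely among the 10 genes. The SD between pools implied for Ier3 was 0.574 log2 units, above that of 99.1% of the 1980 genes within 0.5 log2 units of its level, whose median SD was 0.158. For Egr1 it was 0.247, above 96.1% of genes at its level (median 0.103). Counting error would give an SD of about 0.115 for Ier3 and 0.034 for Egr1, so pools varied beyond counting for both. Egr2, Egr3, Egr4 and Nr4a1 lay at percentiles from 61.2 (Egr3) to 73.6 (Egr2) of genes at their levels. In contrast, Ier2 had an SD of 0.0732 (percentile 18.7) and Ier5 one of 0.109 (percentile 43.0). The small difference of Ier2 was called and the similar ones of the EGR genes were not, alongside SDs that were over 3 times larger in the latter. Nr4a2 and Nr4a3 had SDs of 0.204 and 0.460, near or under the counting error of 0.209 and 0.691.

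**Figure D4:**
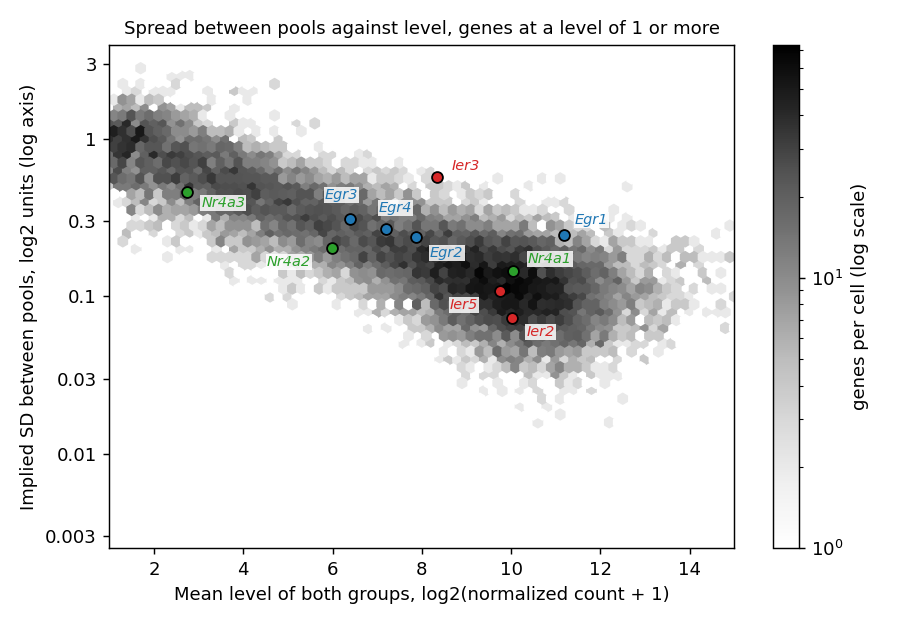
Implied SD between pools (y axis, log scale, log2 units) against mean log2 level (x axis) for genes at a level of 1 or more (grey density), with the 10 genes coloured by family (EGR blue, NR4A green, IER red). Ier3 and Egr1 lie near the top of the cloud at their levels, and Ier2 lies in its lower part.

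Most other primary response genes were called higher. Of 50 genes of this kind listed from general knowledge, 29 were called higher and 1 lower, and 20 were not called, where 7.37% and 6.46% of all genes tested were called higher and lower. Their median difference was 0.58, beside -0.04 over all genes tested. The 2 with the smallest deposited p-values were Rhob, a small GTPase gene, at 1.29 (95% interval 1.05 to 1.52) and Dusp6, a phosphatase gene that restrains ERK, at 0.53 (0.40 to 0.66). Of the 50 genes, 1 (Atf3) had a larger difference than Ier3, 29 a larger one than Ier2 or Egr3, 34 than Egr1, and 45 than Nr4a1. Among AP-1 genes, picked after their values were seen, Atf3 was called at 3.70 (2.68 to 4.71) and Junb at 2.46 (1.41 to 3.50). Fos, often induced together with Egr1, was at 1.24 (-0.19 to 2.68) and not called, with an interval that held both 0 and a large rise. The genes that were not called included Dusp1 (0.26, -0.06 to 0.58), Per1 (-0.31, -0.68 to 0.07) and Sik1 (0.07, -0.30 to 0.44). With 1 common prior variance and no robust fitting, 6 of the 50 were called, against 1.24% of all genes. The list was written with earlier results of these data known, so its direction is not independent evidence.

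**Figure D5:**
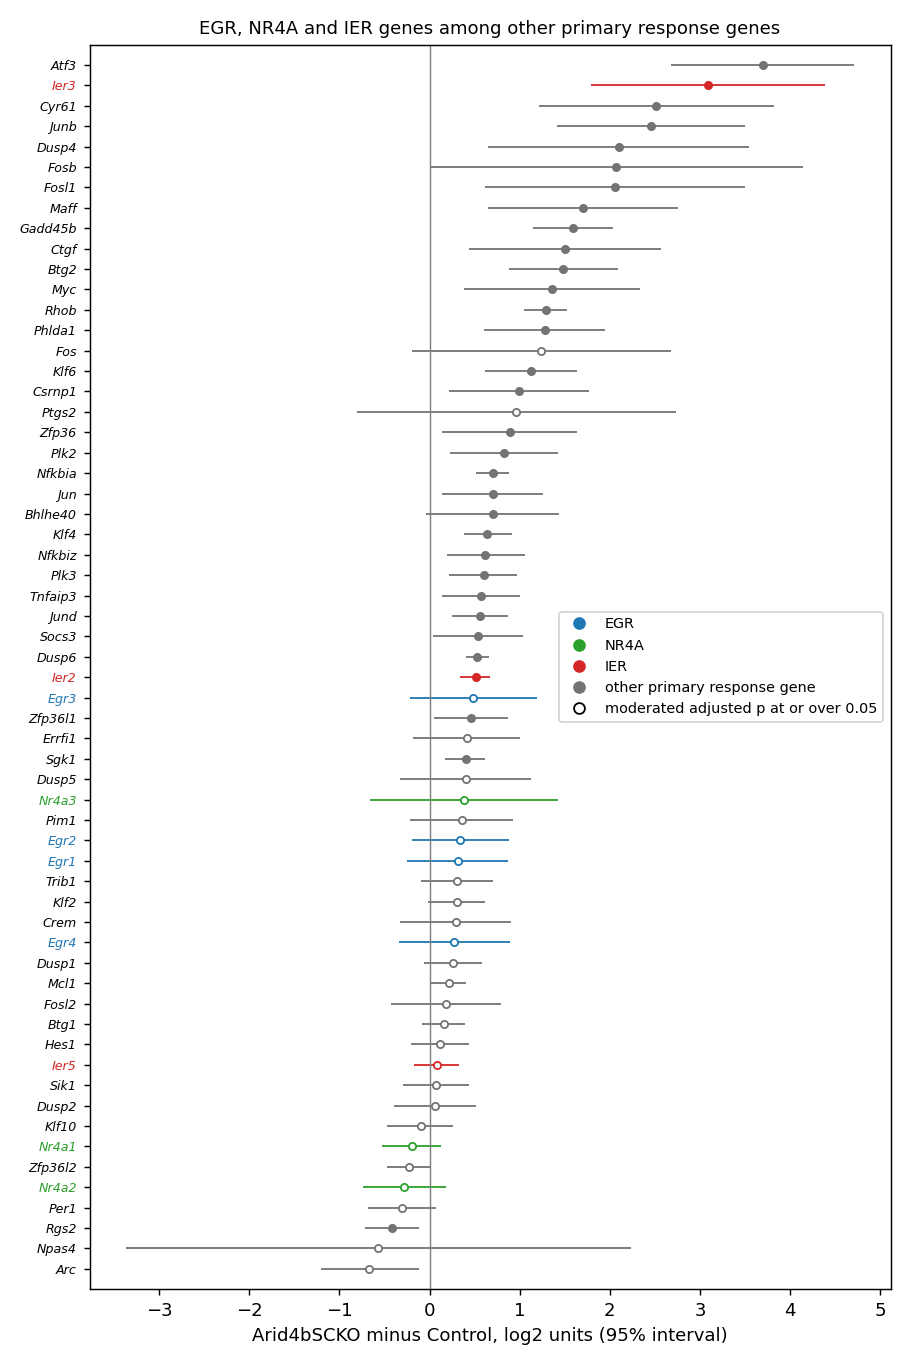
Differences between Arid4bSCKO and control in log2 units with 95% intervals for 50 other primary response genes (grey) and the 10 genes (coloured by family), sorted by size and filled where the moderated adjusted p is below 0.05. Ier3 stands second to Atf3, and the EGR and NR4A genes lie between -0.28 and 0.48.

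Among factors that activate these promoters, calls are read against the 7.37% of all genes tested that were called higher and the 6.46% called lower. Of 7 SRF and ternary complex factor genes, 1 was called higher (Fhl2, an SRF cofactor gene, 0.41, 95% interval -0.02 to 0.83) and 0 lower, and Elk1 was at -0.28 (-0.48 to -0.08) without a call. Intervals come from the deposited p-values and calls from the moderated limma test. An interval can therefore span 0 for a called gene, as for Fhl2, or exclude it for one not called, as for Elk1. Of 7 CREB and coactivator genes, 2 were called lower, Crtc3 at -0.60 (-1.12 to -0.07) and Ep300 at -0.36 (-0.63 to -0.10). Of 15 ERK cascade genes, 2 were called lower and 0 higher, where 6.46% of all genes tested were called lower and 13.8% in either direction. In this list Rps6ka5, a kinase that phosphorylates CREB, was called lower at -0.37 (-0.47 to -0.27), and Nras was at 0.17 (0.07 to 0.27) without a call.

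Of 5 EGR partners and relatives, 1 was called lower, beside 6.46% of all genes tested. It was Sp1 at -0.35 (-0.57 to -0.13), and Sp3 was at -0.24 (-0.37 to -0.10) without a call. The EGR corepressor Nab2, itself an EGR target, was at -0.02 (-0.29 to 0.24). Of 9 NR4A partners, 4 were called lower, where 6.46% of all genes tested were. Nr5a1, which encodes SF1 and acts on some of the same steroidogenic promoters, was at -0.53 (-0.78 to -0.29), and the corepressor gene Nrip1 at -0.39 (-0.66 to -0.12). Rxra, the gene of a dimer partner, was at -0.38 (-0.67 to -0.09). Of 10 IER relatives and partners, 1 was called higher, beside 7.37% of all genes tested. It was Sertad1 at 0.40 (0.08 to 0.72), and Ier3ip1 was at 0.28 (0.07 to 0.49) without a call. Of 7 Leydig cell steroidogenic and hormone genes, 0 were called, with Star at 0.40 (-0.51 to 1.32) and Lhcgr at -0.21 (-0.66 to 0.24). The 2 genes of each list with the smallest deposited p-values are among those given, 16 in all. They were picked for small p-values in these data, so how many of them were called does not describe the lists. Of these 16, 10 were called, and 4 of the 10 (Rhob, Dusp6, Crtc3 and Nr5a1) were also called with the trend over transcript length removed. With that trend removed, the lists held 0 called SRF or IER partner genes, 1 CREB gene (lower), 0 EGR partners, 2 NR4A partners (lower) and 1 ERK cascade gene (Nras, higher). The share of all genes called in that setting was not worked out, so these counts cannot be read against it. With 1 common prior variance and no robust fitting, Rhob alone of the 16 was called (1), and 0 genes of the SRF, CREB, ERK cascade and 3 partner lists were, where 1.24% of all genes were. Rxra, Nab2, Dusp1, Per1 and Sik1 were named after their values were seen.

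Short transcripts were higher in Arid4bSCKO as a class, and the 2 called genes, Ier2 and Ier3, have short transcripts. Genes with a longest transcript of 1 to 2 kb, as Ier2 (1522 bases) and Ier3 (1131 bases) have, had a median difference of 0.08, and 11.3% of them were called higher. Those of 3 to 4 kb had a median of -0.04, with 7.24% called higher. With the trend over length removed, Ier3 was at 2.98 (adjusted p = 0.00295 in the moderated limma test) and Ier2 at 0.44 (adjusted p = 0.00784), and Egr1 was at 0.39 with an adjusted p of 0.0979. Cell type markers moved as well. All 11 macrophage markers were called higher, against 7.37% of all genes tested. Their summed level was 2570 normalized counts in control and 4660 in Arid4bSCKO, or 181% of control. With the length trend removed 8 of the 11 markers were called, and Fcer1g and Aif1 were not (adjusted p = 0.125 and 0.063 in the moderated limma test). The share of all genes called in that setting was not worked out. Emr1 had no matched length and was not tested in that setting. With 1 common prior variance and no robust fitting 1 of the 11 was called (C1qa). Of 10 Sertoli cell markers 3 were called lower and 1 higher, where 6.46% of all genes tested were called lower and 7.37% higher. The sum of the 10 was 56.9% of control. Amh alone, which was not called (adjusted p = 0.111 in the moderated limma test), stood at 32.4% of control, and the sum of the other 9 was 69.5% of control. With 1 common prior variance and no robust fitting 0 of the 10 were called. Of 10 germ cell markers 1 was called lower, beside 6.46% of all genes tested, and their sum was 76.1% of control. Of 7 neutrophil and mast cell markers 3 were called higher, beside 7.37% of all genes tested, with a sum at 173% of control. Those 3, named after their values were seen, were mast cell genes: Cpa3 (1.31), Mcpt4 (1.27) and Cma1 (1.44). The neutrophil genes S100a8, S100a9, Ngp and Ltf were not called, with wide intervals such as -2.11 to 3.29 for S100a8. With 1 common prior variance and no robust fitting 0 of the 7 were called. Of 6 myoid markers 1 was called higher (sum 121% of control), as was 1 of 7 endothelial markers (89.9%), beside 7.37% of all genes tested. None of the 6 erythroid and 6 fetal Leydig cell markers was called by the moderated limma test (0 in each), and 0 in each had an unadjusted p below 0.05. Their sums were 152% of control for erythroid cells and 97.5% for fetal Leydig cells. The erythroid intervals were wide, for example -0.73 to 2.12 for Hbb-bs (0.69). Of 7 heat shock genes that respond to handling 1 was called higher and 1 lower, beside 7.37% and 6.46% of all genes tested. The median of the 7 was 0.00. No marker of any list was below a log2 level of 1 in both groups. The part of cell makeup and of handling in the Ier2 and Ier3 values was not tested.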

How the data were processed

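The authors deposited 1 table for the 6 libraries (3 a group). Per the labels' protocols, libraries were strand-preserving poly(A) libraries, and per the submitters' processing notes STAR 2.4 and mm10 were used. How reads were counted, with or without strand, and normalized is not given in the sources used here. Per the file headers and column descriptions, the table gives mean log2 values per group, a log2 fold change of the group medians, an equal-variance p-value and its FDR. The deposited FDR was checked against Benjamini-Hochberg values recomputed from the deposited p-values (largest relative difference 4.78e-05). The p-value was read as a test of log2 values, since genes with 1 read in every control library and none in Arid4bSCKO have 3.14e-08, near the 3.06e-08 calculated on that scale (1.36e-07 on the linear one).

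Differences are Arid4bSCKO minus control, from the group means. The SE and 95% interval follow from the deposited p with 4 degrees of freedom. Folds come from log2(normalized count + 1) and are too small for genes of few reads. The implied variances were shrunk with limma 3.58.1 (squeezeVar, trend on level, robust) in R 4.3.3 over 19095 genes with a mean log2 level of at least 1, with Benjamini-Hochberg adjustment. Rows with a filled-in Arid4bSCKO value (529) were left out. The test was tested on simulated data. Groups of 3 with t above 2.83 (p below 0.0474) cannot overlap, since the deviations within groups are bounded by the pooled variance. Depth is the summed group mean over the worth of 1 read, the most common value among genes read in a single library. No label ties the pools to separate litters, and the p-values then describe only how these pools vary.

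Transcript lengths are from GENCODE M21 (matched for 88.5% of the genes tested) and promoters from RefSeq (GRCm38.p6). Alternatives were the fitting of the spread, the filter on level, removal of trends over level and length, median centring, readjustment and the median fold. Named genes are the 10 members, Arid4b and, from each list, the 2 with the smallest deposited p. The members and lists were chosen with earlier results of these data known. The protein comparison planned for the families was not made here.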

Additional observations from a re-analysis of the deposited data

How the results depend on the processing

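With 1 common prior variance and no robust fitting, 1 of the 10 genes was called higher in place of 2, since Ier2 had an adjusted p of 0.0602 (moderated limma test) while Ier3 stayed at 0.0452. The cause was not tested. Under the other 5 alternatives of the moderated test (no filter on level, a level of at least 3, the level trend removed, the length trend removed, and centring on the median of genes at a level of at least 5) both were called, and 0 genes were called lower in any setting. Over all 6 alternatives the adjusted p of these 2 genes ran from 0.00266 to 0.0602. In the 47 values of the other 8 genes it ran from 0.0979 (Egr1, length trend removed) to 0.697, and the direction of each was kept. Nr4a3 has no value at a level of at least 3. The deposited p-values readjusted over genes at a level of at least 1 gave 0 genes past the threshold, as did the deposited FDR. The medians of the groups gave the same signs as the means for all 10 genes. The control level per kb of Egr1 moved from 464 to 685 with the transcript matched by RefSeq accession (an alternative chosen after seeing the data), and that of Nr4a1 from 444 to 323 over the union of exons. No paired analysis was possible because the table holds group values only and no value per library. Leaving out each replicate in turn and another pseudocount were not run for the same reason. Depth limits Nr4a3, at about 3.93 reads per control library, and Nr4a2, at about 55.8.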

Other observations

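The nearest genes on both sides of each of the 10 genes, with a level of at least 1, were 20 in number, of which 3 were called higher and 3 lower in the moderated limma test, where 7.37% of all genes tested were called higher and 6.46% lower. Beside Egr1, Reep2, an endoplasmic reticulum shaping gene 13.7 kb away, was called lower at -0.54 log2 units (95% interval -0.91 to -0.17). Sec61b, a subunit gene of the protein translocation channel, was called higher at 0.81 (0.53 to 1.10) and lies 562.0 kb from Nr4a3. Cacna1a, a calcium channel gene 21.1 kb from Ier2, was called lower at -0.57 (-0.95 to -0.19), opposite to Ier2. Mr1, 28.2 kb from Ier5, was called lower at -0.30 (-0.45 to -0.14). The other 2 were Ddr1 and Flot1, on either side of Ier3. These neighbours were chosen by position after the values of the 10 genes were seen.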
